A study of Mus musculus with 18 samples.

Results

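The proteasome genes described here are the genes of both count tables whose symbol is Psm, a letter from a to g and a number. Pseudogenes were to be left out, and 0 were listed, which gave 51 of 40840 genes. They were sorted by role into 7 subunits of the alpha ring, 7 of the standard beta ring, the 3 immunosubunits Psmb8, Psmb9 and Psmb10, 9 subunits of the base, 8 of the lid, 6 activators and inhibitors, 7 assembly chaperones and 2 tissue-specific subunits. A further 2 genes, Psmc3ip and Psme3ip1, match the symbol pattern without being proteasome parts. Psmc3ip encodes a partner of the recombinases of meiosis and Psme3ip1 a protein that binds Psme3.

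The proteasome is the large protease that degrades proteins tagged with ubiquitin. Its core particle is a barrel of alpha and beta rings, with the proteolytic sites on the beta subunits Psmb5, Psmb6 and Psmb7, and its regulatory particle, built of base and lid, binds ubiquitin chains, removes them and feeds the unfolded substrate into the barrel. Under interferon the immunosubunits Psmb8, Psmb9 and Psmb10 take the places of Psmb5, Psmb6 and Psmb7 in newly made particles, which favours peptides suited to MHC class I. Cells short of proteasome activity raise most standard subunit genes together through the transcription factor NRF1, which Nfe2l1 encodes.

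The livers were those of female C57BL/6 mice whose ovaries had been removed, in 2 models of obesity. For 6 weeks an osmotic minipump gave each mouse vehicle (DMSO, ethanol and saline), estradiol (E2; 5 µg/kg daily) or PaPE-1 (300 µg/kg daily), a ligand of the estrogen receptor made to favour its signalling outside the nucleus. The DIO model was wild-type mice on high-fat food, in which fat supplied 45% of the calories and cholesterol made up 0.2%. The ob/ob model was mice without leptin in any tissue, kept on normal AIN-76A food. Every group had 3 libraries, named below by their titles, which gave 18 in all. The sample records speak of 3 replicates extracted and 2 sequenced per group, the tables hold 3 of each, and p-values here measure the spread between those libraries. In each model both ligands were compared with the same vehicle libraries.

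Total counts were 16651616 to 21703791 per library in DIO liver and 10470665 to 17021370 in ob/ob liver, of which 0.344% to 0.420% and 0.393% to 0.476% fell on the proteasome genes. Psmb11, the thymus subunit, had 0 counts in every library, and the other 50 genes passed the filter on low counts in both models. Within a group the median SD of log2 counts per 1000000 (CPM) over these 50 genes was 0.19 in DIO and 0.11 in ob/ob liver, beside 0.24 and 0.21 over all genes tested. The tissue label was checked with 6 hepatocyte genes, Alb among them, whose summed level was 84455 to 93020.5 CPM in DIO vehicle and 79968 to 107072 CPM in ob/ob vehicle libraries. The leptin mutation was not checked, since liver makes little leptin mRNA.

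Promoters are shown for 4 genes that the results turn on: Psmb8, the immunosubunit called under E2 in ob/ob liver whichever library was left out, its neighbour Psmb9, Psmb5, the standard subunit that Psmb8 replaces, and Psmb3, the standard subunit with the highest log2 fold change under E2 in ob/ob liver. The windows run from 250 bases before to 50 bases after the start of the RefSeq gene, are written along the gene's strand, and are on GRCm38.p6, whereas the counts were made on GRCm39. In capitals are matches, on either strand, to the interferon gamma element core TTCNNNGAA (Psmb8), the CCAAT box (Psmb9, on the opposite strand, and Psmb3), the NRF element core TGACNNNGC (Psmb5) and the interferon regulatory factor element GAAANNGAAA (Psmb3, on the opposite strand).
Psmb8, chr17:34197945-34198244, plus strand: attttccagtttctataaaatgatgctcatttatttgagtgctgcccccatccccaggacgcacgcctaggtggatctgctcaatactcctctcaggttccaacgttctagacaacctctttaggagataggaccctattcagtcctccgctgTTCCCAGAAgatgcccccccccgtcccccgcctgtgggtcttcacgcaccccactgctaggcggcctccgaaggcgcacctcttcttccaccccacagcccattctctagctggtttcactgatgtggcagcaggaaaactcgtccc
Psmb9, chr17:34187281-34187580, minus strand: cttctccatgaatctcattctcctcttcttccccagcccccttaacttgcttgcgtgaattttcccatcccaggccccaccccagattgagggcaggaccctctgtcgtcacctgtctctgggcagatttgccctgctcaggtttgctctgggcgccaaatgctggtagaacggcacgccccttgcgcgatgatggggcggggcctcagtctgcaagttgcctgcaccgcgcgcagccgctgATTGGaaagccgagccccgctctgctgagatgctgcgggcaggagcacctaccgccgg
Psmb5, chr14:54617946-54618245, minus strand: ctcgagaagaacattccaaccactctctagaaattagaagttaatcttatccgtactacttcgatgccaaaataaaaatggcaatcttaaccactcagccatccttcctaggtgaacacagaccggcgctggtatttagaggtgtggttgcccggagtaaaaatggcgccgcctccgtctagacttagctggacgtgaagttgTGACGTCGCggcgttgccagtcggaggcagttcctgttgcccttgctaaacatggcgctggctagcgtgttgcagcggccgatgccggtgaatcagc
Psmb3, chr11:97703184-97703483, plus strand: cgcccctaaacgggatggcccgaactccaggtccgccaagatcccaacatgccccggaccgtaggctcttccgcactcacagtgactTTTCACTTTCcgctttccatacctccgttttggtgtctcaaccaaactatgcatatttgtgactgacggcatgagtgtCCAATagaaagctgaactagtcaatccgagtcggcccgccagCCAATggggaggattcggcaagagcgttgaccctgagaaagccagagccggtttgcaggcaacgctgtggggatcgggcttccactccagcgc
The match in Psmb8 begins 97 bases before the start and that in Psmb5 47 bases before it. Of the 51 genes, 43 had such a window, and a gene was counted once if any of its windows held the motif. TGACNNNGC was found in 6 of the 43 (Psmb5, Psmb6, Psmc6, Psmd12, Psmd9 and Psme4), or 14% against 14% of 27025 genes. TTCNNNGAA was found in 3 (Psmb8, Psmd2 and Psmg1), 6.98% against 9.55%, and CCAAT in 16, 37.2% against 41.1%. GAAANNGAAA was found in 5 (Psmb3, Psmd4, Psmd9, Psme1 and Psmg4), 11.6% against 3.99%. No printed match overlaps another, and these shares describe letters in a window only.

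In vehicle liver the beta ring was the highest class per gene length. Levels between genes are compared in transcripts per 1000000 (TPM), the counts divided by gene length and scaled to the same total in each library. The median over the beta ring was 224 TPM in DIO and 239 TPM in ob/ob vehicle liver, followed by the alpha ring at 184 and 164, the base at 119 and 142 and the lid at 105 and 104. The immunosubunits lay at a median of 62.7 TPM in DIO and 31.5 TPM in ob/ob liver, and the assembly chaperones at 34.3 and 37.8.

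In DIO vehicle liver Psmb1, a beta subunit without a proteolytic site, stood first at 305 ± 14.6 TPM (SD, n = 3), ahead of Psmb4 at 278 ± 18.3 and Psma6 at 251 ± 8.22. The neighbours Psma6, Psme1 at 248 ± 13.2 and Psmb7 at 243 ± 19.7 did not differ beyond their SD. In ob/ob vehicle liver the lid subunit Psmd8 stood first at 390.5 ± 19.6 TPM, where in DIO it had 162 ± 4.53 and rank 14. Psmb5 had 78.2 ± 9.82 TPM in DIO and 151 ± 24.9 in ob/ob vehicle liver, the lowest of the standard beta ring in both models. Lowest of the genes with counts were Psme2b, a second copy of the activator gene Psme2, Psma8, a testis subunit, and Psmc3ip, which had 1.22 ± 0.458, 0.839 ± 0.516 and 0.361 ± 0.0640 TPM in DIO vehicle. Mouse model, diet and separate tables cannot be told apart, so these levels are set side by side with no test between models.

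**Figure D1:**
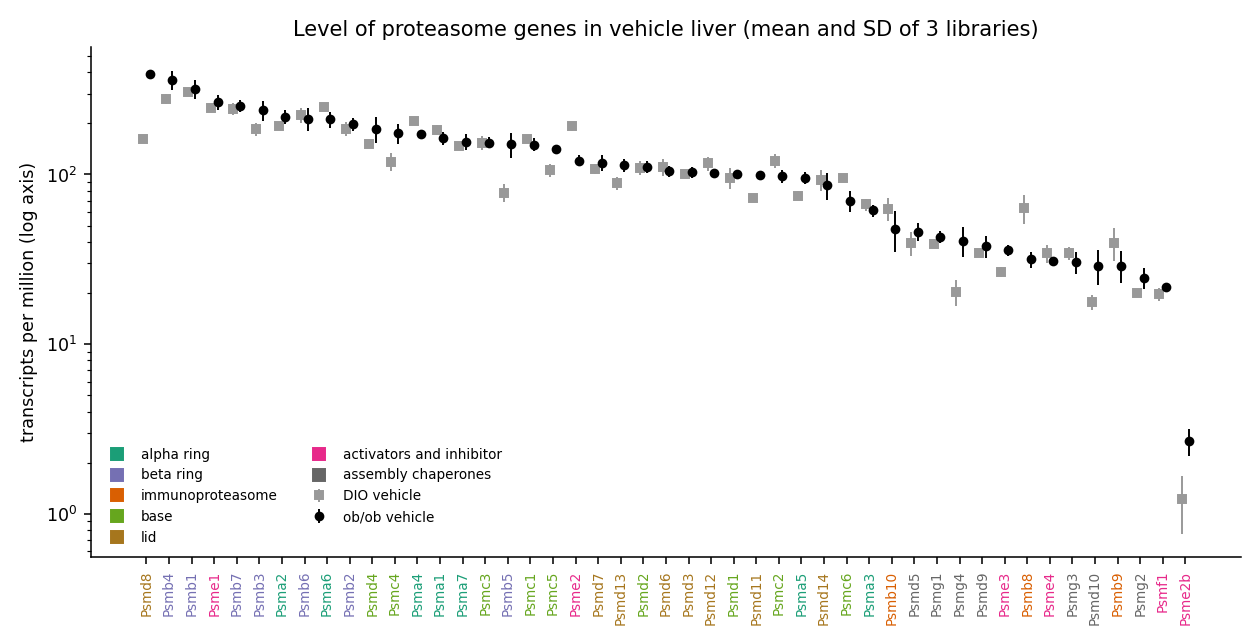
Level of the 47 proteasome genes of the core, regulatory, activator and chaperone classes in vehicle liver, in TPM on a log axis, with points for the mean and bars for the SD of 3 libraries, grey squares for DIO and black circles for ob/ob; gene names are coloured by class and ordered by the ob/ob level. Most beta ring genes lie in the left part of the plot, Psmd8 is first in ob/ob at 390.5 TPM but at 162 TPM in DIO, and the immunosubunits lie in its right part.

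PaPE-1 was compared with vehicle in DIO liver to ask whether the ligand changed the levels of proteasome genes in mice on a high-fat diet. No proteasome gene passed the test, although most were measured higher: 45 of the 50 had a log2 fold change above 0, against 47.1% of all 13884 genes tested. At an unadjusted p under 0.05, 14 were higher and 0 lower, against 11.4% and 9.68% of all genes. The edgeR quasi-likelihood test called 0 of 50 at an adjusted p under 0.05 and 0 of all genes (0%), limma voom called 0 of both, and DESeq2 called 1 of 50, Psmb1, and 5.46% of all genes. The median log2 fold change was 0.28 over the proteasome genes and -0.029 over all genes.

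Psmb10, the immunosubunit that replaces Psmb7, had 29.2, 34.1 and 39.2 CPM in the vehicle libraries WV7, WV8 and WV9 and 51.5, 52.6 and 57.2 CPM in the PaPE-1 libraries WP11, WP12 and WP24. All PaPE-1 libraries lay above all vehicle libraries, and the log2 fold change was 0.65 ± 0.21 (SE), with an adjusted p of 0.125. Psmb1 had 142, 122 and 144 CPM against 223, 164 and 199 CPM. Its groups also did not overlap, at 0.52 ± 0.16 and an adjusted p of 0.112. Psmg1, a chaperone of alpha ring assembly, had 17.9, 16.6 and 18.2 CPM against 26.9, 22.6 and 23.0, a difference of 0.46 with an adjusted p of 0.137. All its PaPE-1 libraries lay above vehicle.

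Without the E2 library WE3, which shares the fit, Psmb10 was called, against 4.33% of all genes, and likewise when vehicle and PaPE-1 libraries were fitted alone (adjusted p 0.0312), against 5.68%. The largest value was that of Psmg4, another assembly chaperone and the shortest gene of the set, with 4.16, 4.54 and 5.87 CPM in vehicle and 10.4, 5.64 and 7.97 CPM in PaPE-1 libraries and a log2 fold change of 0.72 (adjusted p 0.151). The library WP12 lay inside the vehicle range. The lowest values belonged to Psmd1, the large scaffold of the base, with 157, 109 and 138 CPM against 108, 107 and 118 (-0.28, adjusted p 0.291), and to the lid subunit Psmd11, with 99.7, 88.1 and 91.8 against 73.5, 74.0 and 83.7 (-0.27, adjusted p 0.239). Psmd11 was the 1 proteasome gene with all PaPE-1 libraries below all vehicle libraries, and 23 had all of them above, against 15.8% and 16.4% of all genes.

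By class, the median log2 fold change was 0.48 for the immunosubunits, 0.40 for the beta ring, 0.36 for the alpha ring, 0.36 for the assembly chaperones, 0.20 for the lid and 0.16 for the base. Among the activators, the interferon-inducible pair Psme1 and Psme2 had values of 0.54 and 0.50 (adjusted p 0.184 and 0.188). Psme1 had 102, 98.7 and 112 CPM in vehicle and 185, 138 and 132 CPM in PaPE-1 libraries, and Psme2 77.9, 78.0 and 86.1 against 133, 96.9 and 112. Both genes were higher in all 3 PaPE-1 libraries. Psme4, which encodes a large single-chain activator and is the longest gene of the set, had 132, 103 and 104 CPM against 95.3, 92.0 and 117, with overlapping groups and -0.16.

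The mean over the 50 genes, relative to the vehicle mean on the log2 scale, was 0.38, 0.12 and 0.28 in WP11, WP12 and WP24 and 0.068, -0.14 and 0.073 in the vehicle libraries. WP12 thus lay near the upper vehicle libraries and WP11 highest. In the same libraries 4 of the 6 hepatocyte genes were higher at an unadjusted p under 0.05 and 0 were called, and their summed level was 108483 to 134435 CPM under PaPE-1 against 84455 to 93020.5 under vehicle, with no gene of the list at 0. The sums of 4 stellate cell genes, 221 to 248 against 285 to 303 CPM, and of 8 lymphocyte genes, 14.9 to 19.8 against 21.1 to 30.4, lay wholly below vehicle, with 2 and 1 of the genes lower at an unadjusted p under 0.05, 0 called and none at 0. Of all genes tested 11.4% were higher and 9.68% lower at that unadjusted p. The mean over the 8 lymphocyte genes on the log2 scale, unlike their sum, overlapped vehicle. Relative to the vehicle mean it was -0.030, -0.13 and -0.32 in WP11, WP12 and WP24. In WV7, WV8 and WV9 it was -0.31, 0.36 and -0.044. The Kupffer cell, endothelial, neutrophil and cholangiocyte sums overlapped vehicle. Their part in the result was not tested, and in bulk tissue fewer cells of a type and less RNA per cell cannot be told apart.

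**Figure D2:**
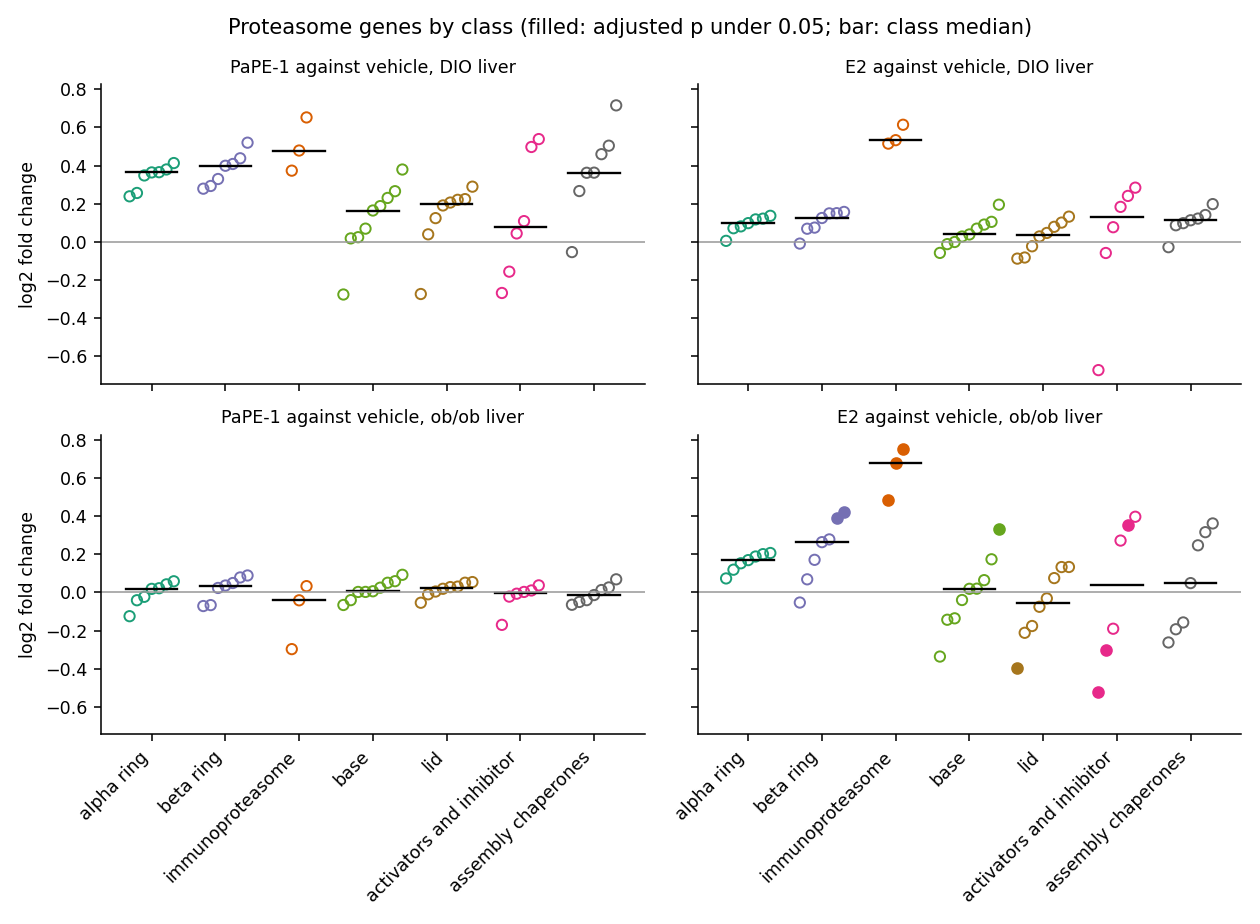
Log2 fold change against vehicle of the 47 proteasome genes of 7 classes, 1 panel per ligand and model and 1 circle per gene; bars are class medians and filled circles have an adjusted p under 0.05. Filled circles appear in the panel of E2 in ob/ob liver and in no other, with the 3 immunosubunits on top, while in DIO liver the PaPE-1 values lie mostly above 0 without a filled circle.

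Gene length moved with this comparison. The proteasome genes are short, with a median exon length of 1405.5 bases against 3633 over all genes tested, and in DIO liver the trend of the log2 fold change under PaPE-1 over all genes ran from 0.30 at 1000 bases to -0.17 at 5000 bases. Read at the lengths of the proteasome genes, that trend had a median of 0.22. With each library's length trend removed, the median of the proteasome genes was 0.10 beside 0.046 over all genes, and 36 of 50 lay above 0 against 56.7%. At an unadjusted p under 0.05 there was then 1, Psmb10 at 0.41, against 15.1% of all genes, and 0 were called.

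The classes kept different values after this step. The median was 0.23 for the immunosubunits and 0.17 for the chaperones, but 0.061 for the beta ring, 0.016 for the lid and -0.032 for the base. Psmd11 and Psmd1 stayed lowest among subunits of the particle, at -0.25 and -0.22. Psmb5 went from 0.28 to -0.043 and Psme4 from -0.16 to 0.11, so both changed sign.

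**Figure D3:**
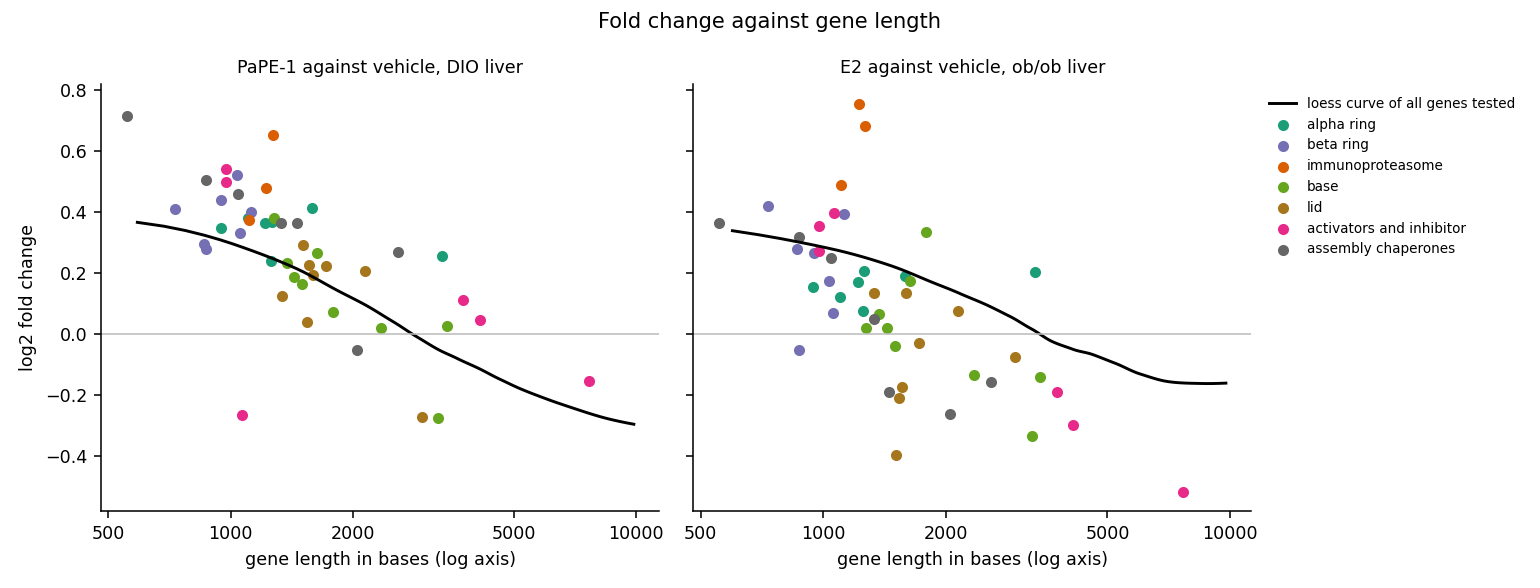
Log2 fold change of the proteasome genes against gene length in bases on a log axis, for PaPE-1 in DIO liver and E2 in ob/ob liver; points are genes coloured by class and the line is the loess curve over all genes tested. In DIO liver most points follow the falling curve and in ob/ob liver most lie below it, Psmb8 and Psmb10 lie above it in both, and in ob/ob liver the lid subunit Psmd8 lies far below it at -0.40.

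E2 in DIO liver left no proteasome gene called, and the highest values were those of the immunosubunits. The edgeR test called 0 of 50 proteasome genes and 0 of all genes (0%), DESeq2 called 0 of the 50 and 0.151% of all, and limma voom 0 of both. At an unadjusted p under 0.05, 2 were higher and 0 lower, Psmb10 and Psmb8, against 2.72% and 2.50% of all genes. The log2 fold change was above 0 for 38 of 50, against 51.4%, with a median of 0.089 beside 0.006 over all genes, and 0.056 beside 0.025 without the length trend. The lid subunit Psmd3 was the 1 gene whose groups did not overlap, against 4.54% of all genes higher.

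Psmb8 had 27.1, 37.0 and 35.8 CPM in vehicle and 32.4, 67.3 and 43.2 CPM in the E2 libraries WE3, WE14 and WE18, Psmb9 had 14.6, 21.0 and 20.9 against 16.6, 48.6 and 21.3, and Psmb10 had 29.2, 34.1 and 39.2 against 33.0, 65.8 and 49.8. WE14 was highest for all 3 genes, and WE3 lay inside the vehicle range for each. The log2 fold changes were 0.52 ± 0.23, 0.61 ± 0.35 and 0.53 ± 0.21, with adjusted p of 0.937 for Psmb8 and 0.919 for Psmb10 and an unadjusted p above 0.05 for Psmb9. Without WE14 they were 0.18 for Psmb8, 0.0081 for Psmb9 and 0.27 for Psmb10, and the median over the 50 genes was -0.012.

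Interferon response and Kupffer cell genes were also measured higher in the E2 libraries, none of them past the test. Psmb8 (chr17:34417169-34420428, plus strand, on GRCm39) and Psmb9 (chr17:34400961-34406304, minus strand) lie in the MHC, while Psmb10 is at chr8:106662360-106665024. The mean over 12 interferon response genes, relative to the vehicle mean on the log2 scale, was 0.61 in WE14, 0.38 in WE18 and 0.30 in WE3, and that over 6 Kupffer cell genes 0.37, 0.55 and 1.18. In the vehicle libraries WV7, WV8 and WV9 the interferon mean was -0.44, 0.20 and 0.24 and the Kupffer cell mean -0.12, -0.077 and 0.19. Among the E2 libraries WE14 was thus highest for the interferon genes and lowest for the Kupffer cell genes. Of the Kupffer cell genes 5 of 6 were higher at an unadjusted p under 0.05, 0 were called, none was at 0, and their summed level was 448 to 612 CPM under E2 against 302 to 402 under vehicle. The hepatocyte sum also lay wholly above vehicle, 94149.7 to 124201 against 84455 to 93020.5, with 1 of 6 genes higher at an unadjusted p under 0.05. Of all genes tested 2.72% were higher at that threshold. Their part in the result was not tested.

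The lowest values under E2 were those of Psme2b at -0.67, with 17, 11 and 8 counts in vehicle and 13, 5 and 4 in E2 libraries, and of Psmd14, the lid's deubiquitinase, at -0.088 with 70.5, 49.0 and 65.7 against 52.1, 68.5 and 53.7 CPM. Both overlapped. Reads of Psme2b may belong to its source gene Psme2. The standard subunits that the immunosubunits replace had 33.7, 24.1 and 30.4 CPM in vehicle and 25.6, 36.1 and 25.96 CPM under E2 for Psmb5, 120.4, 91.6 and 114 and 93.6, 135 and 116 for Psmb6, and 122, 95.7 and 115 and 100.2, 134 and 115 for Psmb7. All of them overlapped, with log2 fold changes of -0.009, 0.075 and 0.069.

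PaPE-1 was also set directly against E2 in DIO liver, at the doses given above, which differ. The edgeR test called 0 of 50 proteasome genes and 5 of all genes (0.0360%), DESeq2 0 of the 50 and 1.58% of all, limma voom 0 of the 50 and 0.0072%, and 5 were higher at an unadjusted p under 0.05 against 8.41% of all genes. The lowest p was that of the chaperone Psmg3, with 10.2, 14.3 and 13.5 CPM under E2 and 21.1, 15.99 and 17.8 under PaPE-1, which did not overlap, at 0.53 (95% interval 0.16 to 0.91) and an adjusted p of 0.195. The median difference was 0.20, and 0.025 without the length trend. The immunosubunits differed by -0.036 for Psmb8 (interval -0.53 to 0.46), -0.24 for Psmb9 (-1.02 to 0.54) and 0.12 for Psmb10 (-0.33 to 0.57), intervals that include both signs.

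In ob/ob liver 11 proteasome genes passed the test for E2 against vehicle, and the 3 immunosubunits were among those that rose. The edgeR test called 11 of 50, or 22%, against 22.1% of all 13433 genes, so as a group the proteasome genes were called at the rate of the background. Those that rose were Psmb8, Psmb10, Psmb9, the beta subunits Psmb3 and Psmb6, the ATPase Psmc2 and the activator Psme2, 7 against 9.81%. Those that fell were the activators Psme4 and Psme3, the lid subunit Psmd8 and Psmc3ip, 4 against 12.3%. The median log2 fold change was 0.075 beside 0.0073 over all genes. Without Psmc3ip and Psme3ip1, which are not proteasome parts, 10 genes were called, 7 higher and 3 lower, and the median was 0.097. At a fold over 2 with an unadjusted p under 0.05 there was 1, Psmc3ip, against 6.14%.

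Psmb8 had 19.8, 18.9 and 16.7 CPM in the vehicle libraries L3, L8 and L13 and 29.6, 32.2 and 31.6 CPM in the E2 libraries L1, L12 and L19. The E2 libraries lay close together and well above vehicle, with a log2 fold change of 0.75 ± 0.13 and an adjusted p of 0.00364. Psmb10 had 38.3, 23.4 and 25.7 CPM against 43.2, 49.6 and 47.5 (0.68 ± 0.18, adjusted p 0.0206), and Psmb9 17.1, 17.1 and 12.1 against 21.2, 22.8 and 20.6 (0.49 ± 0.15, adjusted p 0.036). Neither gene's groups overlapped, though L3 had the most Psmb10 of the vehicle libraries and came within a few CPM of L1.

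Among standard catalytic subunits only Psmb6 was called, with 106, 131 and 108 CPM in vehicle and 154, 153 and 145 CPM under E2 (0.39 ± 0.11, adjusted p 0.0257). Psmb5 had 56.0, 72.4 and 60.2 CPM against 59.8, 61.4 and 60.4 and Psmb7 119.7, 135 and 130.0 against 148, 128 and 128, with log2 fold changes of -0.053 and 0.069 and overlapping groups. Psmb3, a structural beta subunit, rose from 76.5, 93.1 and 81.3 CPM to 108, 118 and 108 CPM (0.42 ± 0.11, adjusted p 0.0192). Its E2 libraries all lay above vehicle.

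**Figure D4:**
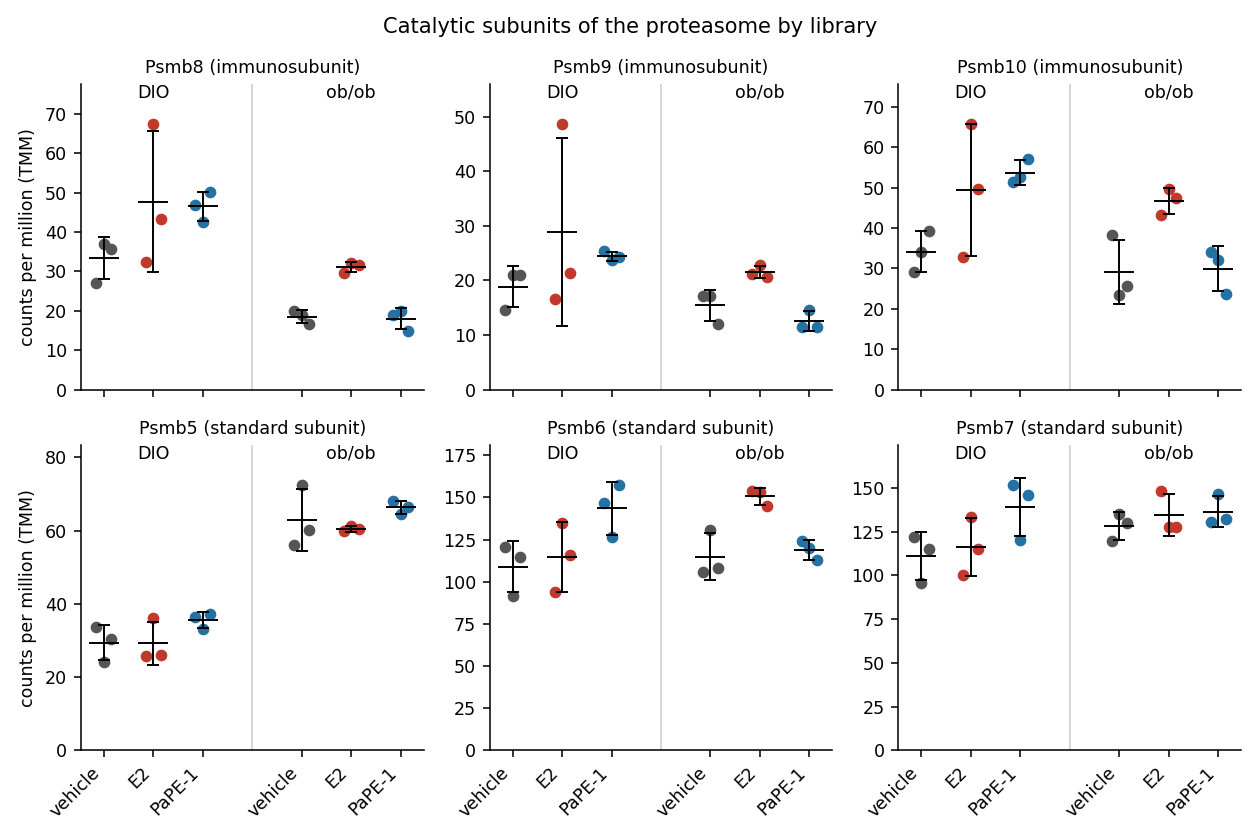
Level in CPM of the 3 immunosubunits (top) and the standard subunits they replace (bottom) in each of the 18 libraries; points are libraries, horizontal lines group means and bars the SD (n = 3), with DIO on the left and ob/ob on the right of each panel. In ob/ob liver the E2 points of Psmb8, Psmb9 and Psmb10 lie above all vehicle and PaPE-1 points. In DIO liver WE14 is the highest E2 point for these 3 genes. For Psmb10 in DIO liver WE18 and all PaPE-1 points also lie above all vehicle points.

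Of the activators, Psme2 rose from 61.2, 54.4 and 54.3 CPM to 76.8, 73.4 and 66.8 CPM (0.35, adjusted p 0.0463), and its partner Psme1 had 133, 127 and 114 against 144, 164 and 144, at 0.27 and an adjusted p of 0.0906. Both genes were higher in every E2 library than in every vehicle library. Psme4 fell from 111, 110.0 and 119.6 to 99.2, 66.6 and 72.0 CPM (-0.52, adjusted p 0.022), and Psme3, whose product activates the core particle in the nucleus, from 65.0, 73.2 and 73.3 to 58.4, 54.3 and 59.1 (-0.30, adjusted p 0.0479). The inhibitor Psmf1 had a value of -0.19 with an adjusted p of 0.18.

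In the regulatory particle Psmc2 rose from 79.4, 89.0 and 82.7 to 105, 108 and 103 CPM (0.33, adjusted p 0.0341) and was the 1 called of the 9 genes of the base. Psmd8 fell from 277, 289.7 and 283 to 179, 239 and 228 CPM (-0.40, adjusted p 0.0423) and was the 1 called of 8 in the lid. The share called over all genes was 22.1%. L1 was the lowest for Psmd8. The scaffold Psmd1 had 159, 158 and 156 CPM against 134, 121 and 120.3, all E2 libraries below vehicle, at -0.34 and an adjusted p of 0.0547.

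None of the 7 alpha ring genes was called by edgeR, DESeq2 or limma voom, and none had an unadjusted p under 0.05, but all 7 lay above 0, with a median of 0.17. Their mean relative to vehicle was 0.21, 0.16 and 0.11 in L1, L12 and L19. Without the length trend it was 0.042, -0.10 and -0.12. None of the 7 assembly chaperones was called by any of the 3 tools either, with 0 at an unadjusted p under 0.05 and values from -0.26 to 0.36. Over all genes edgeR called 22.1%, DESeq2 23.5% and limma voom 21.7%. In the edgeR test 37.7% of all genes were at an unadjusted p under 0.05. Psmc3ip, with few counts, had 23, 12 and 13 in vehicle and 6, 6 and 4 in E2 libraries and fell by 1.62 on the log2 scale (adjusted p 0.0201). Psma8 had 4, 12 and 14 counts against 5, 5 and 9 and a value of -0.72 with an adjusted p of 0.417. Over the 50 genes, 17 had all E2 libraries above and 6 all below vehicle, against 20.7% and 20.8% of all genes.

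Length moved with this comparison too, from 0.28 at 1000 bases to -0.087 at 5000 bases over all genes. With the trend removed, the proteasome genes had a median of -0.14 beside -0.016 over all genes, and 11 of 50 lay above 0 where 31 had before, against 48.3% and 50.6% of all genes. Called genes were then 5, or 10%, against 17.9%. Psmb8 rose by 0.49 (adjusted p 0.0121), while Psmd8 at -0.62, Psmc3ip at -1.68, the lid subunit Psmd13 at -0.38 and Psmb5 at -0.35 fell (adjusted p 0.00812, 0.0206, 0.0324 and 0.0398). Psmb10 and Psmb9 had 0.42 and 0.22 with adjusted p of 0.117 and 0.323, and Psmb3, Psmb6, Psmc2 and Psme2 lay at 0.10, 0.13, 0.16 and 0.062. In every lid gene the value was below 0.

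**Figure D5:**
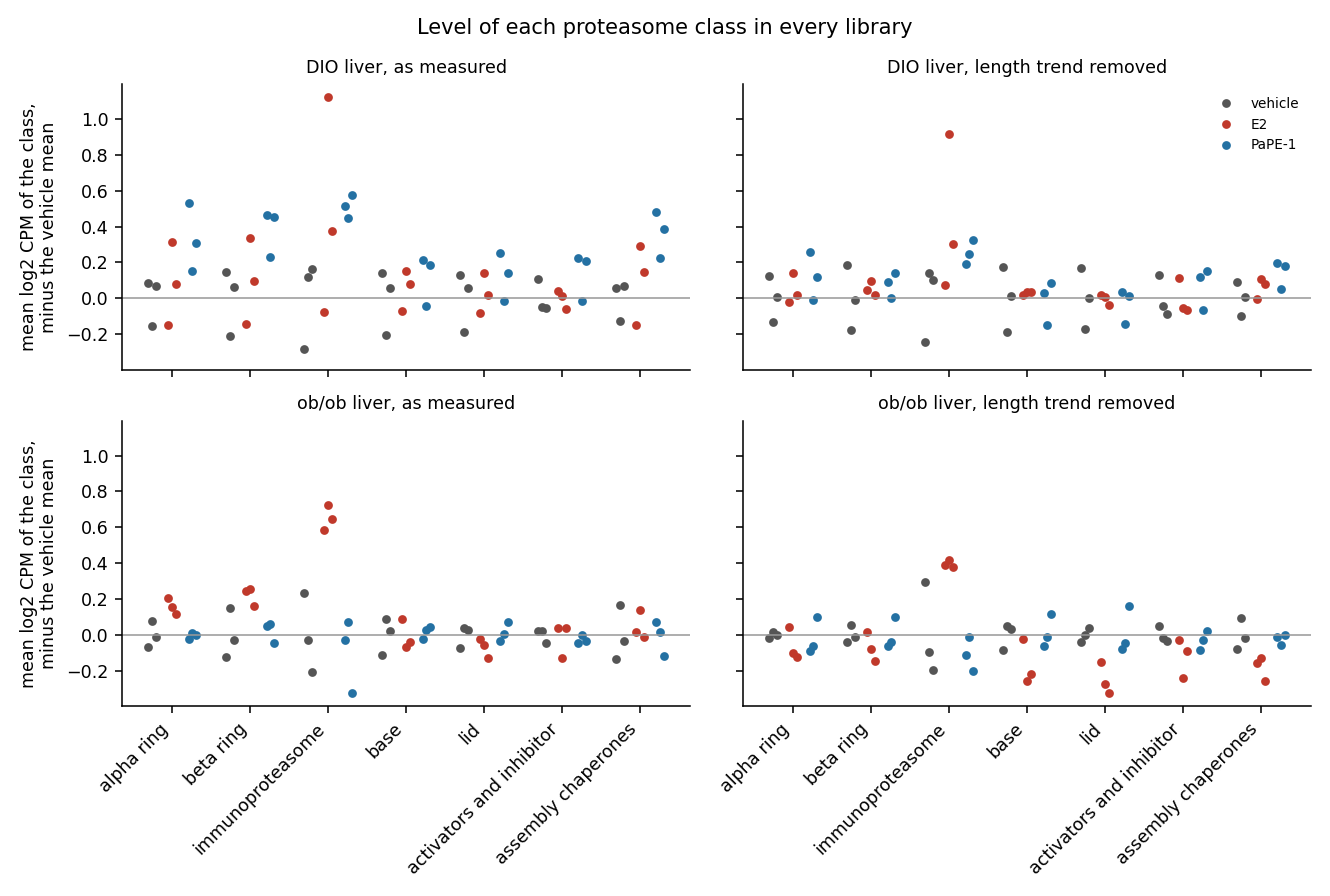
Mean log2 CPM of each proteasome class in every library, relative to the vehicle mean of its model, as measured (left) and with the length trend of each library removed (right); points are libraries coloured by treatment. In ob/ob liver the E2 libraries lie above all others for the immunosubunits on both sides. As measured they span 0.59 to 0.73 against -0.21 to 0.23 in vehicle. On the right they span 0.38 to 0.42 against -0.20 to 0.29, with the vehicle library L3 close below them. The lid under E2 goes from near 0 to below it.

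Single libraries decided most of these calls but not that of Psmb8. Psmb8 was called in all 9 fits that left out 1 library, with log2 fold changes from 0.68 to 0.81. Without L12 or without L19, both E2 libraries, it was the 1 proteasome gene called, against 5.7% and 10.6% of all genes. Without the vehicle library L13 there were 2, Psmb8 and Psmc3ip, against 12.6%, without the vehicle library L3 5, against 15.7%, and without the vehicle library L8 7, against 15%.

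Genes of other liver cells rose in the same E2 libraries of ob/ob mice. All 7 neutrophil genes were called higher, with a summed level of 88.2 to 346 CPM against 5.12 to 6.03 in vehicle, as were all 6 endothelial genes, 227 to 283 against 116 to 133. Of 6 Kupffer cell genes 3 were called higher, 356 to 499 against 219.6 to 304, and of the 6 lymphocyte genes tested 1, with a sum over all 8 lymphocyte genes, the 2 untested ones included, of 15.3 to 20.2 against 10.5 to 18.9. Of 6 hepatocyte genes 3 were called higher and 1 lower, 136383 to 152222 against 79968 to 107072, and of the 4 stellate and 3 cholangiocyte genes edgeR called 0, with 0 at an unadjusted p under 0.05. Over all genes tested 9.81% were called higher and 12.3% lower. No gene of these lists was at 0 in every library of a group. Their part in the changes of the proteasome genes was not tested.

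PaPE-1 in ob/ob liver left no proteasome gene called. The edgeR test called 0 of 50 and 0 of all genes (0%), DESeq2 0 of the 50 and 0.0149% of all, limma voom 0 of both, and 1 was at an unadjusted p under 0.05, Psma8, against 0.998% of all genes higher. The median log2 fold change was 0.0084, and 0.0018 without the length trend, which was flat here at 0.021 for 1000 bases and -0.014 for 5000. Psma5, Psmc3ip and Psmf1 had all PaPE-1 libraries below vehicle and 0 genes had all above, against 2.90% and 2.88%.

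Psmb8 had 18.98, 20.02 and 14.9 CPM in the PaPE-1 libraries L5, L6 and L16, Psmb9 11.5, 14.6 and 11.5 and Psmb10 34.1, 32.0 and 23.7, with log2 fold changes against vehicle of -0.041 ± 0.13, -0.30 ± 0.16 and 0.033 ± 0.18. These overlapped the vehicle libraries given above. Psma8 had 37, 10 and 25 counts under PaPE-1, with the library L5 highest, and a value of 1.17 that did not pass the test, though its fold was over 2, as for 0.670% of all genes with an unadjusted p under 0.05. Psmc3ip had 11, 9 and 12 counts (-0.64), Psmc2 82.0, 92.8 and 92.9 CPM (0.093) and Psmf1 34.0, 37.2 and 33.5 CPM against 37.9, 39.9 and 39.9 in vehicle (-0.17), none of them past the test.

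Set directly against E2 in ob/ob liver, PaPE-1 gave lower levels of the immunosubunits. The edgeR test called 9 of 50, or 18%, against 17.4% of all genes, again a share near the background. Lower were Psmb8 at -0.79 ± 0.13 (adjusted p 0.00367), Psmb9 at -0.78 ± 0.15 (0.00705), Psmb10 at -0.65 ± 0.18 (0.0294), Psmb3 at -0.38 (0.0329), Psmb2 at -0.35 (0.0375) and Psma5 at -0.29 (0.0495), 6 against 7.45%. Higher were Psme4 at 0.56 (0.0197), Psmd8 at 0.43 (0.0379) and the scarce Psma8 at 1.88 (0.0331), 3, or 6%, against 1343 of all 13433 genes (10%). At a fold over 2 with an unadjusted p under 0.05 there was 1, Psma8, against 4.88%.

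Under PaPE-1 the levels were 107, 113 and 130.0 CPM for Psme4 and 312, 260.1 and 296 CPM for Psmd8. All 3 PaPE-1 libraries lay above the E2 libraries for both genes. Without the length trend 7 were called, against 14.2%: Psmb8 at -0.56 and Psmb9 at -0.53 lower, and Psmd8 at 0.65, Psma8 at 2.01, Psmb5 at 0.41, Psmd13 at 0.39 and the chaperone Psmd10 at 0.44 higher. The median went from -0.049 to 0.12. Without L12, without L19 or without the PaPE-1 library L16, Psmb8 and Psmb9 were the 2 genes called, against 3.6%, 7.89% and 6.69% of all genes, and without L5 there were 4, against 11.3%.

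The markers of other cells moved with this comparison as well. All 6 endothelial genes, 4 of 7 neutrophil genes, 2 of 6 Kupffer cell genes, 2 of the 6 lymphocyte genes tested and 3 of 6 hepatocyte genes were called lower under PaPE-1 than under E2. Over all genes tested 7.45% were called lower. Under PaPE-1 their summed levels were 107 to 144 CPM for the endothelial, 2.77 to 60.2 for the neutrophil, 199 to 291 for the Kupffer cell and 86672 to 110064 for the hepatocyte genes. The PaPE-1 libraries lay below all E2 libraries for these 4 sums, for the stellate sum (316 to 327 against 352 to 374) and for the sum of all 8 lymphocyte genes (11.4 to 13.2 against 15.3 to 20.2), and overlapped them for the cholangiocyte sum. The mean over the 6 Kupffer cell genes on the log2 scale, unlike their sum, overlapped. Relative to the vehicle mean it was 0.46, 0.56 and -0.85 in L5, L6 and L16. In L1, L12 and L19 it was 0.55, 0.83 and 1.02. Their part in the result was not tested.

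The balance of immunosubunits and standard subunits was read within each library as the ratio of their levels per length. Psmb8 stood at 25.3%, 18.5% and 19.8% of Psmb5 in ob/ob vehicle, 35.3%, 37.3% and 37.2% under E2 and 19.9%, 22.1% and 16.01% under PaPE-1. The E2 libraries lay above all others, with a mean of 36.6% ± 1.14 against 21.2% ± 3.57 (SD, n = 3; exact two-sided permutation p = 0.1). That p is the smallest 3 libraries against 3 can give, and the 18 such comparisons made had adjusted p of at least 0.45. Psmb10 stood at 29.2% ± 4.32 of Psmb7 under E2 and 19.2% ± 6.57 in vehicle (exact p = 0.2), and Psmb9 at 14.5% ± 0.580 and 13.6% ± 2.51 of Psmb6 (exact p = 0.7). For Psmb9 the E2 libraries lay inside the vehicle range.

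In DIO liver the ratio of Psmb8 to Psmb5 was 57.4%, 109% and 83.7% in vehicle, 89.9%, 133% and 118% under E2 and 91.3%, 91.2% and 95.4% under PaPE-1. The PaPE-1 libraries lay inside the spread of the vehicle libraries, and the E2 libraries overlapped it. The exact p was 0.2 for E2 and 0.7 for PaPE-1 against vehicle. For Psmb9 over Psmb6 and Psmb10 over Psmb7 under E2, WE14 was again highest, at 36.5% and 40.9%.

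Whether the ligands' effects differed between the models was tested as an interaction over the 18 libraries and 14171 genes. For E2 the edgeR test called 0 of 50 proteasome genes and 2 of all genes (0.0141%). DESeq2 called 0 of the 50 and 2.29% of all genes, and limma voom 0 of the 50 and 0.00706%. In the edgeR test 4 were lower in ob/ob at an unadjusted p under 0.05, Psmc3ip, Psme4, Psme3 and Psmd8, against 9.96%. The difference of effects, ob/ob minus DIO, was 0.22 for Psmb8 (95% interval -0.36 to 0.80), -0.15 for Psmb9 (-1.02 to 0.73) and 0.13 for Psmb10 (-0.51 to 0.77). These intervals include both signs and effects as large as those of either model, so the call in ob/ob liver alone does not show that the models differ. Without WE14, 1 of 50 was called, Psme3, or 2%, against 5.76% of all genes. At a fold over 2 with an unadjusted p under 0.05 there was 1, Psmc3ip, against 4.85%.

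For PaPE-1 the edgeR test called 0 of 50 and 0 of all genes (0%), DESeq2 0 of the 50 and 0.748% of all, limma voom 0 of both, and 8 were lower in ob/ob at an unadjusted p under 0.05 against 7.29%. Without the length trend 1 of 50 was at an unadjusted p under 0.05 in either direction, against 8.69% of all genes. The median difference of effects was -0.26, and -0.084 without the length trend. Psmb10 had -0.63 with an interval of -1.27 to 0.011, and Psmb1 -0.51 with -0.91 to -0.11 and an adjusted p of 0.311.

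Other genes of the pathway were tested in ob/ob liver under E2 as 4 lists, with 6 of 16, 2 of 8, 2 of 12 and 5 of 12 members called. Of 16 proteasome partners, 0 rose and 6 fell, among them Ubqln2 (-0.78, adjusted p 0.00589), a shuttle for ubiquitinated proteins, Zfand2a (-0.75, 0.0086), which binds the particle under arsenite stress, the ubiquitin ligase Ube3c (-0.39, 0.016) and the scaffold Ecpas (-0.43, 0.0188). Their median was -0.16, and over all genes tested 9.81% rose and 12.3% fell. Of 8 genes for regulators of proteasome transcription and the p97 complex, 0 rose and 2 fell, Nploc4 (-0.43, 0.0184) and Ngly1 (-0.43, 0.0213), which encodes the enzyme that strips sugars from NRF1. Nfe2l1 itself had -0.18 with an adjusted p of 0.272, and Ddi2, whose product cleaves NRF1, -1.43 with 0.0544.

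Of 12 MHC class I genes 2 rose and 0 fell, the peptide transporter Tap1 (0.60, 0.0114) and H2-K1 (0.45, 0.0356). The share of all genes tested that rose was 9.81%, and 12.3% fell. Of 12 interferon response genes 5 rose and 0 fell, Irf7 (0.90, 0.00314), Ifit3 (0.83, 0.00556), Irf9 (0.58, 0.0107), Ifit1 (0.65, 0.015) and Isg15 (0.78, 0.0184), and all 12 lay above 0, with a median of 0.49. The mean over these 12 was 0.43, 0.55 and 0.65 in the E2 libraries and 0.28, -0.025 and -0.25 in vehicle. All 3 E2 values lay above vehicle, with L3 highest of the vehicle libraries as it was for Psmb8 and Psmb10. Among the E2 libraries L19 was highest for the interferon mean, and L12 for Psmb8, Psmb9 and Psmb10. The part of the interferon genes in the changes of the immunosubunits was not tested.

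In DIO liver edgeR called none of the genes of these 4 lists under either ligand. Under PaPE-1 the assembly factor Pomp had a log2 fold change of 0.46 with an adjusted p of 0.166 and the lid subunit Sem1, whose symbol the pattern does not match, 0.55 with 0.145. Over the partners 3 were higher at an unadjusted p under 0.05, over the interferon genes 1 lower, Stat2 at -0.47, and over the other lists 0. Of all genes tested 11.4% were higher and 9.68% lower at that threshold. Under E2 6 of the 12 interferon genes, led by Irf1 at 0.49 with an adjusted p of 0.838, and 1 partner, Ubqln4, were higher at an unadjusted p under 0.05. The share over all genes was 2.72%.

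In ob/ob liver under PaPE-1 edgeR called 0 genes of these lists, and 1 was at an unadjusted p under 0.05, the interferon-induced Gbp2 at -0.63. Against E2, PaPE-1 gave 4 of 16 partners and 2 of 8 regulators called higher and 0 lower. It gave 2 of 12 MHC class I and 6 of 12 interferon response genes called lower, with 0 of either higher. Among all 13433 genes tested, 1343 (10%) were called higher and 7.45% lower. The median of the interferon genes was -0.60 in that comparison, and all 12 lay below 0.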

How the data were processed

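Poly-A RNA from 18 liver libraries was sequenced in a stranded protocol, from both ends per the labels. The paper's methods name single-end reads and TopHat, and the headers of the deposited counts name first-read files and no paired option. Per the labels and file headers the authors used CASAVA 1.8.2, STAR 2.7.6a and featureCounts 2.0.0 (strand option 2) on GRCm39 and deposited 1 table of raw counts per gene for each model, with the exon length in bases as another column. The authors' own comparisons, deposited as fold changes, p-values and normalized counts from DESeq2, were not used. All columns were matched to samples by title (0 unmatched), and none of the 36 library pairs compared in each model held identical counts.

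Counts were normalized by TMM after edgeR's filter on low counts, each model was fitted with its 9 libraries by the robust quasi-likelihood test, and p-values were adjusted over all genes tested by the method of Benjamini and Hochberg, with calls at 0.05 (R 4.3.3, edgeR 4.0.16). The interaction was fitted over all 18. CPM used TMM library sizes, and log2 CPM a prior count of 2. To remove the length trend, a loess curve (span 0.5) of log2 CPM on log2 length was fitted in each library, and its deviation from the mean curve entered the offsets. Limma 3.58.1 (voom) and DESeq2 1.42.0 served as alternatives. The fits were tested on simulated data. Ratios of subunits were compared by exact permutation.

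Members, gene lists and tests were chosen with earlier results of these data known. Values per library were given for the catalytic pairs, Psme1, Psme2, Psme4 and, in each comparison with vehicle, the genes with the 2 highest and 2 lowest log2 fold changes and the 3 smallest p. A further list of the pathway is not reported here. Lists were given by counts and up to 4 members with the smallest p. Other genes given values (Psmg3, Psmd8, Psmd1, Psme3, Psmf1, Isg15 and Gbp2 among them) were chosen after their values were seen. Reads of Psme2b and Psme2, near-identical copies, may be divided wrongly. Promoters came from RefSeq on GRCm38.p6.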

Additional observations from a re-analysis of the deposited data

How the results depend on the processing

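Depth sets the precision for Psma8, Psmc3ip and Psme2b, which had few counts per library. No paired analysis was possible because the labels give no replicate numbers shared between groups. In DIO liver, the count of proteasome genes called under PaPE-1 against vehicle was 1 with DESeq2, against 5.46% of all genes, and 1 with the compared groups alone, against 5.68%. It was 0 to 1 when 1 library was left out, with 4.33% of all genes called where it was 1. With the length trend removed, the median log2 fold change was 0.10 for that comparison and 0.025 for PaPE-1 against E2. In ob/ob liver, the count under E2 was 5 with the length trend removed, against 17.9% of all genes, and the median was -0.14 without the trend. When 1 library was left out the count was 1 to 12. It was 1 without L12 or L19, against 5.7% and 10.6% of all genes, and 12 without L16, against 24.2%. For PaPE-1 against E2 in ob/ob liver the median was 0.12 without the trend, and the count was 2 to 9 when 1 library was left out. Of all genes 3.6%, 7.89% and 6.69% were called where it was 2 (without L12, L19 or L16) and 17.7% where it was 9 (without L8). For the interaction of E2 the count was 0 to 1, with 5.76% of all genes called where it was 1. A fold over 2 with an unadjusted p under 0.05 gave 1 gene each for PaPE-1, for E2 and for PaPE-1 against E2 in ob/ob liver, and 1 for the interaction of E2. The shares over all genes were 0.670%, 6.14%, 4.88% and 4.85%.

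Removing the length trend changed the sign of Psmb5 (-0.043) and Psme4 (0.11) under PaPE-1 in DIO liver, of Psme1 (-0.015) under PaPE-1 in ob/ob liver, and of Psmb7 (-0.20) and Psme1 (-0.019) under E2 in ob/ob liver, none of them called. Leaving out 1 library changed signs under E2 in DIO liver for Psmb5 (-0.19 to 0.10), Psmb6 (-0.057 to 0.20), Psmb7 (-0.043 to 0.17), Psme1 (-0.020 to 0.45) and Psme4 (-0.050 to 0.20). The same held under PaPE-1 in ob/ob liver for Psmb10 (-0.098 to 0.28), Psmb6 (-0.0039 to 0.15), Psmb8 (-0.12 to 0.080), Psme1 (-0.049 to 0.061), Psme2 (-0.11 to 0.071) and Psme4 (-0.048 to 0.098), and under E2 in ob/ob liver for Psmb5 (-0.13 to 0.059) and Psmb7 (-0.020 to 0.11). Of the other values compared, 662 were unchanged, 108 were no longer called and 3 were newly called. For a single gene, unchanged means the same direction and the same side of the threshold. The 662 also include the medians without the length trend at a loess span of 0.3, which moved less than the spread between libraries. Apart from the construction of each alternative, the cause was not tested.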
